A study of Mus musculus with 4 samples.

Results

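The transcriptomes of 2 groups of leukaemia cells, those whose cell barcodes end in suffix 1 and those whose barcodes end in suffix 2, were compared gene by gene. Barcodes with at most 10% of their unique molecular identifiers (UMIs, counts of single captured transcripts) in mitochondrially encoded genes were kept. This left 1174 cells of suffix 1 and 1251 of suffix 2, together 2425 of the 5456 kept cells of the series. The deposited table carries 4 suffixes and 4 samples were described, but nothing in the sources used here ties a suffix to a sample. The suffixes are therefore named by number only, and no genotype or treatment is given to either.

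The series holds MLL-AF9 leukaemia cells from C57BL6 mice aged 11 weeks, in 1 sample each of Hif-1a wt with PBS, Hif-1a KO with PBS, Hif-1a wt with chemotherapy and Hif-1a KO with chemotherapy. All came from c-Kit+ marrow of Hif-1alpha Lox/Lox, CreERT2 animals, transduced with the MLL-AF9 retrovirus and grown in wild type mice. The protocols give 1 mg tamoxifen or vehicle for 5 days, begun 10 days after transplantation, and chemotherapy was 5 days of cytarabine (100 mg/kg) and 3 days of doxorubicin (3 mg/kg), with PBS as its control. GFP+ marrow cells were sorted 3 days later, and the sources used here state neither the number of mice behind a sample nor the promoter driving CreERT2.

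MLL-AF9 is a fusion oncoprotein that turns myeloid progenitors into acute myeloid leukaemia and keeps HOXA genes and their cofactor Meis1 active. HIF-1 is a transcription factor whose alpha subunit is degraded when oxygen is plentiful; when stabilised it binds short DNA motifs and raises genes of glucose uptake, glycolysis, lactate export and mitochondrial turnover. Leukaemic cells of this kind span stages from progenitors to partly matured granulocytes and monocytes, so a difference between libraries can lie in the mix of stages or within a stage.

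Both libraries were of similar depth. Suffix 1 held 7644436 UMIs and suffix 2 held 8327726, with medians of 6094 and 6435 UMIs per cell. Among kept cells, 4 barcode sequences occurred in both. The level of 3 counts was 0.392 CPM (UMIs of the gene scaled to a library total of 1000000) in suffix 1 and 0.360 in suffix 2. For a gene without a UMI the exact 95% interval reached 0.483 CPM in suffix 1 and 0.443 in suffix 2. Erythroid, T and NK cell, and megakaryocyte marker lists summed to at most 7.46 CPM in either suffix. The defining B cell marker list held 1 gene above 10 CPM, Cd79b, at 82.5 and 84.2 CPM. Each suffix is 1 library, so no test between them was possible: all 95% intervals are exact, cover counting error only, and say nothing of the spread between animals.

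The 2 libraries were close to each other. Of 6553 genes with a mean of at least 10 CPM, 84.7% differed by less than 1.2-fold, and the median log2 ratio of suffix 2 over suffix 1 was -0.06 (ratios are of CPM + 1), with 35.4% of genes above 0. At least 1.5-fold higher in suffix 2 were 26 genes (0.397% of those measured), and at least 1.5-fold higher in suffix 1 were 44 (0.671%). With TMM scaling, which centres the bulk of genes, the split was 40 against 29. Only 14 genes differed by more than 2-fold. Suffixes 3 and 4 were as close to each other, with 76 such genes either way (1.17%), against 70 (1.07%) here, while the comparisons across these pairs gave 1913 (3 against 1, 28.9%), 1654 (4 against 1, 24.8%), 1475 (3 against 2, 22.5%) and 1247 (4 against 2, 18.9%).

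**Figure D1:**
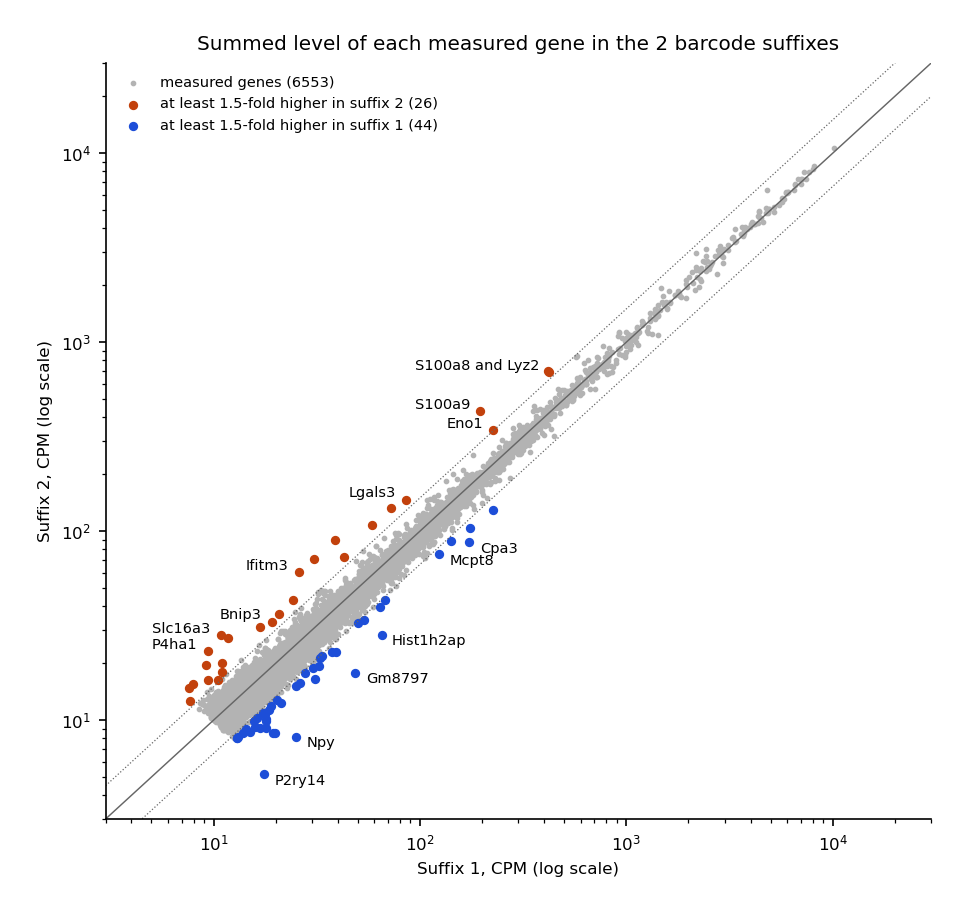
Each point is 1 of 6553 measured genes, with its summed level in suffix 1 on the x axis and in suffix 2 on the y axis, both in CPM on log scales. The solid line marks equality and the dotted lines 1.5-fold. The 26 genes higher in suffix 2 and the 44 higher in suffix 1 lie just outside a narrow band that holds nearly all genes.

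Among genes with a mean of at least 10 CPM, the largest ratio in favour of suffix 2 belonged to Slc16a3, the lactate exporter MCT4 (ENSMUSG00000025161.16, chromosome 11, 120948480 to 120960868, plus strand, GRCm38). It stood at 10.9 CPM (95% interval 8.65 to 13.5) in suffix 1 and 28.3 CPM (24.8 to 32.2) in suffix 2, a ratio of 2.61 (2.02 to 3.39). The second was P4ha1, a catalytic subunit of the prolyl hydroxylase that matures collagen and a known HIF-1 target (ENSMUSG00000019916.14, chromosome 10, 59323296 to 59373304, plus strand). Its level was 9.42 CPM (7.37 to 11.9) against 23.2 CPM (20.02 to 26.7), a ratio of 2.46 (1.87 to 3.27). Both differences were spread over many cells: the 10 cells richest in Slc16a3 held 16.9% and 11.0% of its UMIs. Once cells were thinned to 2000 UMIs each, Slc16a3 was seen in 1.92% of suffix 1 cells (1.21 to 2.89%) and 5.36% of suffix 2 cells (4.17 to 6.77%). Without thinning the shares were 6.73% and 16.2%.

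Because these genes belong to a group with a known DNA motif, the 250 bases before the RefSeq start site of 4 of them, chosen after their values were seen, are shown (RefSeq, GRCm38.p6). Capitals mark ACGTG or GCGTG on either strand, the core of the hypoxia response element, which reads CACGT or CACGC when it lies on the other strand. The stretches are chr11:120948817-120949066 (plus strand) for Slc16a3, chr10:59323046-59323295 (plus) for P4ha1, chr8:45999851-46000100 (minus) for Ankrd37 and chr7:138909507-138909756 (minus) for Bnip3. Those of Slc16a3 and Ankrd37 lie inside the GENCODE loci given for these genes in the text. They come before the RefSeq start but not before the outermost GENCODE start.
Slc16a3: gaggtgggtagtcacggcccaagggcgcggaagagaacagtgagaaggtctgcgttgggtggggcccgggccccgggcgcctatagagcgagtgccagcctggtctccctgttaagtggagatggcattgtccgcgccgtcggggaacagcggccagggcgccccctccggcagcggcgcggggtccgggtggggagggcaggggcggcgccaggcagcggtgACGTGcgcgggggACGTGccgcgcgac
P4ha1: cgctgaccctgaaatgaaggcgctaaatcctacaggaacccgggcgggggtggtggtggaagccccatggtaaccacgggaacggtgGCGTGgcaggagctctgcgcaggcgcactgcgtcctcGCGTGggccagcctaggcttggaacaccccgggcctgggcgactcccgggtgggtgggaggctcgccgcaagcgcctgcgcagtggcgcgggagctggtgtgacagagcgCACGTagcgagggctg
Ankrd37: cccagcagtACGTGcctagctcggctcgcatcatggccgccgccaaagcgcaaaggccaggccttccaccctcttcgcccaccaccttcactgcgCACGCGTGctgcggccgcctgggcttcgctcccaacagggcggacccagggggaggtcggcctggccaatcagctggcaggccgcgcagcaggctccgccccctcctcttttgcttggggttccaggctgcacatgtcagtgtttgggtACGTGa
Bnip3: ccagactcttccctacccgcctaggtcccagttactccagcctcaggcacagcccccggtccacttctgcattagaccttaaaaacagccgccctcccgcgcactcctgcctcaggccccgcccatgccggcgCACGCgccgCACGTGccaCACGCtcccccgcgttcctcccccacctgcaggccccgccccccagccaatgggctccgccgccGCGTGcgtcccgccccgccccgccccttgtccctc
These stretches hold 2, 3, 4 and 5 matches, counting both strands, and matches may overlap, as in the CACGTG of Bnip3. Such short motifs are common: 38.6% of all 32851 RefSeq starts, and 41.5% of 27025 genes by any listed start, held at least 1. Among measured genes the motif was present for 15 of 17 glycolytic genes and for 13 of 15 matched HIF-1-induced genes outside glycolysis, but for 10 of the 21 matched genes past 1.5-fold in suffix 2. The shares over all starts and genes include genes that were not measured here. No share over all measured genes was taken, so whether these lists are enriched was not tested. Mif and Grhpr, both higher in suffix 2, had no match in this window. A match describes letters only, and binding was not measured.

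Glycolytic genes as a group were higher in suffix 2. The list held 20 genes, of which 17 were measured. Only 2 passed 1.5-fold, both in suffix 2, beside 0.397% of all genes: Slc16a3 and Eno1, the enzyme enolase. The median log2 ratio of the 17 was 0.28, against -0.06 for all genes measured, and 14 of 17 were above 0. Summed, the pathway took 5827 CPM (5773 to 5881) in suffix 1 and 7274 CPM (7216 to 7332) in suffix 2. Eno1 was close to the threshold and under it when gates were given equal shares in both suffixes (log2 ratio 0.50), and the list's median was then 0.24.

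In pathway order, the glucose transporter Slc2a1 was at 13.2 and 15.7 CPM, an interval of the ratio that includes 1 (0.911 to 1.56). The hexokinases, which trap glucose in the cell, did not share a direction: Hk1 was lower in suffix 2 (31.4 against 23.1 CPM, ratio 0.734, 0.604 to 0.892), while Hk3 was at 148 and 164 CPM. The platelet-type phosphofructokinase Pfkp, at the committed step, went from 32.0 CPM in suffix 1 to 46.5 in suffix 2 (ratio 1.45, 1.23 to 1.71). From aldolase onwards most enzymes were higher in suffix 2. Aldolase A (Aldoa) stood at 568 and 835 CPM (ratio 1.47, 1.42 to 1.53), close under the threshold. Gapdh stood at 1471 and 1936 CPM, Tpi1 at 358 and 460, Eno1 at 227 and 345, pyruvate kinase Pkm at 769 and 954 and lactate dehydrogenase Ldha at 655 and 804. Pgam1 differed little, at 850 and 889 CPM.

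Pgk1, phosphoglycerate kinase, ran against its neighbours. It was at 30.2 CPM (26.4 to 34.4) in suffix 1 and 20.1 CPM (17.1 to 23.3) in suffix 2, a ratio of 0.664 (0.541 to 0.813). Several glycolytic genes have processed pseudogenes, and how reads were shared among copies is not known here, so single ratios such as that of Pgk1 carry this uncertainty. Aldoc, a second aldolase, was under the 10 CPM minimum with 21 UMIs in suffix 1 and 71 in suffix 2, a ratio of 3.10 (1.88 to 5.32).

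**Figure D2:**
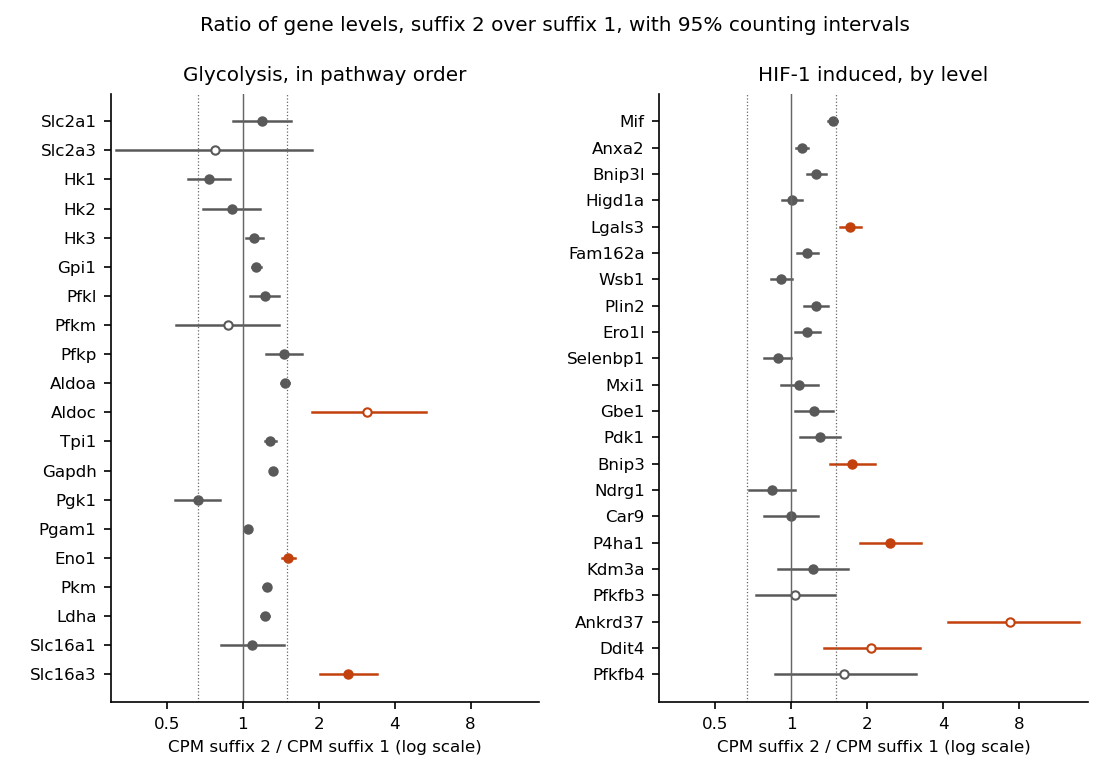
Ratio of CPM in suffix 2 over suffix 1 on a log scale (x axis) for each gene (y axis) of the glycolysis list (left, in pathway order) and of HIF-1-induced genes with at least 40 UMIs (right, by level). Points are ratios and bars are 95% counting intervals; open points are genes under 10 CPM, the dotted lines mark 1.5-fold, and orange marks genes at least 1.5-fold higher in suffix 2 on the CPM + 1 scale. Most points lie to the right of 1, with Slc16a3, Aldoc, P4ha1 and Ankrd37 farthest out and Pgk1 to the left.

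The glycolytic shift was visible across the distribution of cells. Per cell, the list took a median of 55.5 UMIs per 10000 in suffix 1 and 68.5 in suffix 2. The cell at the 10th percentile was at 33.4 and 43.9, and that at the 90th at 77.1 and 98.2, so the low, middle and high parts of the distribution differed in the same direction. The HIF-1-induced genes outside glycolysis had medians of 16.7 and 21.4 per 10000. Thinning to 2000 UMIs per cell gave glycolysis medians of 55 and 70.

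Genes that HIF-1 is known to induce outside glycolysis leaned the same way. Of 28 listed, 18 were measured, with a median log2 ratio of 0.23 and 14 above 0. In suffix 2, 3 passed 1.5-fold, beside 0.397% of all genes, and 0 passed it in suffix 1. The 3 were P4ha1, the mitophagy receptor Bnip3 (19.1 and 33.3 CPM, ratio 1.74, 1.42 to 2.14) and galectin-3, Lgals3 (85.6 and 147 CPM, ratio 1.72, 1.56 to 1.89). Mif, a secreted cytokine and the most abundant of the list, was just under the threshold at 576 CPM (560 to 594) and 841 CPM (821 to 861). Lgals3 is also a macrophage gene, and its level in suffixes 3 and 4 was 555 and 571 CPM.

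Several members showed no such difference. The carbonic anhydrase Car9 was at 16.9 and 16.8 CPM, Higd1a at 122 and 123 CPM, and Ndrg1 at 24.9 and 20.9 CPM, with intervals of the ratio that include 1. Vegfa, the angiogenic growth factor, had 9 and 12 UMIs, too few to compare. Pdk1, which diverts pyruvate from mitochondria, was at 26.3 and 34.1 CPM (ratio 1.297, 1.08 to 1.56), and Bnip3l at 117 and 146 CPM (1.26, 1.15 to 1.37).

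The widest ratio of the list lay under the 10 CPM minimum. Ankrd37, a small ankyrin repeat gene induced by HIF-1 (ENSMUSG00000050914.16, chromosome 8, 45996902 to 46005707, minus strand), had 14 UMIs in suffix 1 and 112 in suffix 2, or 1.83 CPM (1.00 to 3.07) and 13.4 CPM (11.1 to 16.2). The ratio was 7.34 (4.199 to 13.9). It was at 0.805 CPM in suffix 3 and 6.67 CPM in suffix 4. In both closely matched pairs 1 library was thus low and 1 was high.

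The sensors and subunits of the pathway itself differed less. Hif1a, the regulated subunit, had 294 and 293 UMIs, a ratio of 0.915 (0.775 to 1.08), which includes 1; a 3′ count can persist after a part of a gene is deleted, so it checks no genotype. Its partner Arnt had 67 and 74 UMIs. Of 11 core genes 5 were measured and 0 passed 1.5-fold either way. Egln3, an oxygen-sensing prolyl hydroxylase that is itself induced by HIF, came nearest, at 17.9 CPM (15.05 to 21.2) and 26.4 CPM (23.04 to 30.1), ratio 1.47 (1.19 to 1.84). The ratios of the other hydroxylases had intervals that include 1: Egln1 was at 1.04 (0.740 to 1.46) and Egln2 at 1.03 (0.902 to 1.18).

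The other closely matched pair shares no library with this one. In suffix 4 against suffix 3, 14 of the 17 glycolytic genes were above 0 with a median of 0.19, beside 0.04 for all genes, and 0 passed 1.5-fold; of all genes measured there, 15 (0.23%) were higher in suffix 4 and 61 (0.936%) in suffix 3. The HIF-1-induced list had a median of 0.17 with 13 of 18 above 0. A lean of this size was not particular to these lists. G2 and mitosis genes also had a median of 0.19 in that pair, with 41 of 46 above 0, against -0.20 for suffix 2 over suffix 1. The secondary granule and calprotectin median was -0.13 there, against 0.71 for suffix 2 over suffix 1. Past 1.5-fold and higher in both suffix 2 and suffix 4 were 2 genes, Narf and Grhpr (7.69% of the 26 and 13.3% of the 15), while 7 of the 26 were past it in the opposite direction in that pair. Grhpr, glyoxylate reductase, was at 24.3, 42.99, 13.9 and 26.1 CPM in suffixes 1 to 4, and Narf, a nuclear prelamin A binding factor, at 9.16, 19.6, 13.6 and 24.2 CPM.

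Genes of maturing granulocytes were also higher in suffix 2. Of 15 secondary granule and calprotectin genes 9 were measured, with a list median log2 ratio of 0.71. Past 1.5-fold in suffix 2 were 5 of them, S100a8, S100a9, Lcn2, Chil3 and Wfdc21, beside 0.397% of all genes. S100a9, a calprotectin subunit, stood at 196 CPM (187 to 207) in suffix 1 and 432 CPM (418 to 446) in suffix 2. Of its UMIs, 94.7% in suffix 1 and 79.6% in suffix 2 came from 10 cells. BC100530 and Gm5483, members of the stefin A protease inhibitor cluster with near-identical copies and hence uncertain, had 96.9% and 96.6% of their suffix 1 UMIs in 10 cells. The gate for secondary granule genes (at least 100 UMIs per 10000 in S100a8, S100a9, Camp, Ngp and Ltf) held 12 cells of suffix 1 and 21 of suffix 2, or 1.02% (0.529 to 1.78%) and 1.68% (1.04 to 2.55%).

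Without those cells the granule genes separated. S100a8 went to 93.5 and 110 CPM, a ratio with an interval of 1.06 to 1.2996 where it had been 1.64 in all cells, and its log2 ratio turned to -0.10 when gates were given equal shares in both suffixes. S100a9 stayed apart at 8.85 and 19.9 CPM (interval of the ratio 1.68 to 3.04), as did Lcn2, the iron-binding lipocalin, at 29.6 and 48.7 CPM. Ngp, with 21 UMIs in each suffix, did not. S100a8, S100a9 and Ngp are among the genes that chose the removed cells, which limits these values. Equal gate shares carry the same limit. Whether the remaining counts come from free RNA of the few mature cells was not tested.

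Earlier granulocyte genes differed by less. All 10 primary granule genes were measured and 0 passed 1.5-fold, with a median log2 ratio of 0.17. Elane, neutrophil elastase, was at 4811 and 6368 CPM, Prtn3, proteinase 3, at 2420 and 3104 CPM, and Ctsg, cathepsin G, at 3710 and 3891 CPM. With equal gate shares the log2 ratio of Elane was 0.07, in place of 0.40. That value is limited because Elane itself defines a gate. Monocyte genes had a median of 0.36 over 11 measured. Of them 2 were past 1.5-fold in suffix 2, beside 0.397% of all genes. They were Lyz2, lysozyme, at 420 and 703 CPM, and Ifitm3, an antiviral membrane protein, at 25.9 and 60.5 CPM. Lyz2 was under the threshold, at a log2 ratio of 0.52, without the secondary granule-high and monocyte gene-high cells. Ifitm3 stayed past it (0.96). F13a1, Ccr2 and Csf1r, used with Fn1 to gate monocyte gene-high cells, had intervals of the ratio that include 1. These were 0.982 to 1.12, 0.866 to 1.395 and 0.915 to 1.55. Psap, at 288 and 276 CPM, also had an interval that includes 1. Ly6c2, Ctss, S100a6, Mpeg1 and Ms4a6c were higher in suffix 2, with intervals above 1. Monocyte gene-high cells were 2.7% of suffix 1 and 2.8% of suffix 2. Of 14 measured interferon-response genes only Ifitm3, also in the monocyte list, and Ifi27l2a passed, both higher in suffix 2, beside 0.397% of all genes. The interferon list's median was -0.08.

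On the suffix 1 side, the leading genes included Cpa3, a protease of mast cells and basophils (ENSMUSG00000001865.2, chromosome 3, 20215620 to 20242181, minus strand). It stood at 174 CPM (165 to 183) in suffix 1 and 87.2 CPM (80.9 to 93.8) in suffix 2, a ratio of 0.501 (0.457 to 0.549). Mcpt8, a basophil protease, was at 124 and 75.5 CPM (0.609, 0.5498 to 0.674), and Hdc, which makes histamine, at 39.6 and 28.6 CPM. Of 24 genes in the mast cell, basophil and eosinophil list only these 3 were measured. Past 1.5-fold in suffix 1 were 2 of them, beside 0.671% of all genes. Among the 24 genes, 14 had no UMI in either suffix.

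Cpa3 was detected in fewer cells of suffix 2. It was seen in 24.0% of suffix 1 cells (21.6 to 26.6%) and 13.8% of suffix 2 cells (11.96 to 15.9%), and in 16.5% and 9.59% at 2000 UMIs per cell. In Elane-high cells the shares were 6.20% and 2.74%, at median depths of 7157 and 7432 UMIs. With 3 or more UMIs the shares over all cells were 12.9% and 7.11%. In Elane-high cells that order turned, with 1 cell of suffix 1 (0.413%) and 4 of suffix 2 (1.10%). Among cells with a Cpa3 UMI its level was 796 and 786 CPM, and with equal gate shares the log2 ratio was -0.14 in place of -0.99; both values are limited by choosing cells on Cpa3 itself. Whether the difference lies in the number of expressing cells, in the level per cell or in free RNA was not tested. Mcpt8, which did not choose the cells, was at 95.1 and 48.6 CPM in cells without a Cpa3 UMI, and at 228 and 291 CPM in those with one.

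Progenitor genes leaned the same way. Of 12 measured stem and progenitor genes 1 was above 0, beside 35.4% of all genes, and the median was -0.20; only Angpt1 passed 1.5-fold. Angpt1, a ligand of the Tie2 receptor, was at 19.8 CPM (16.7 to 23.2) in suffix 1 and 8.53 CPM (6.66 to 10.8) in suffix 2. The adhesion receptor Adgrg1 was at 72.6 and 52.96 CPM, and Cd34 was level at 148 and 145 CPM. The nucleotide-sugar receptor P2ry14 had the largest ratio of all measured genes in favour of suffix 1, at 17.5 CPM (14.7 to 20.8) and 5.16 CPM (3.74 to 6.95), or 3.39-fold (2.39 to 4.90). Npy, a neuropeptide, was at 25.1 and 8.17 CPM; 39.1% and 58.8% of its UMIs came from 10 cells, and it was at 4.69 and 1.22 CPM outside Cpa3-high cells.

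The measured genes that MLL-AF9 leaves on in these leukaemias stayed within 1.5-fold, with the most abundant HOXA genes lower in suffix 2. Of 9 measured HOXA and TALE genes 0 passed 1.5-fold, with a median of -0.13 and 3 above 0. Hoxa9 was at 200.1 and 162 CPM (ratio 0.809, 0.751 to 0.871). Hoxa7 had a ratio of 0.859 (0.780 to 0.946) and Hoxa10 of 0.869 (0.778 to 0.971). Their cofactor Meis1 was at 46.3 and 42.1 CPM (0.910, 0.783 to 1.06). Among 14 measured cofactors and dependencies 0 passed. Mef2c, a transcription factor of this leukaemia, came nearest at 272 and 190 CPM (interval of the ratio 0.655 to 0.747).

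Gm8797 and Hist1h2ap were also among the leading genes of suffix 1, at 48.7 and 17.8 CPM and at 65.1 and 28.3 CPM. Gm8797 is a predicted gene and Hist1h2ap a histone gene with near-identical copies, so both counts are uncertain. Both were higher in suffix 3 than in suffix 4 as well, as were Cpa3 and Usp50. In all, 5 genes were past 1.5-fold in suffix 1 and in suffix 3 in their pairs (11.4% of the 44 and 8.20% of the 61). Hist1h2ap was at 263 CPM in suffix 3 and 97.9 in suffix 4.

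Cell-cycle genes were lower in suffix 2 as a group with small single ratios. All 43 measured S phase genes were below 0 in log2 ratio, with a median of -0.30, where 35.4% of all genes were above 0 and their median was -0.06, while 1 of them passed 1.5-fold: Rad51ap1, a recombination factor, at 37.4 and 23.1 CPM. Rrm2, the inducible ribonucleotide reductase subunit, was at 212 and 150 CPM, and Tk1, thymidine kinase, at 106 and 71.8 CPM. Of 46 G2 and mitosis genes 43 were below 0 with a median of -0.20 and 0 past 1.5-fold. The summed S phase list stood at 4397 and 3532 CPM.

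Lists with little difference were many. Nuclear oxidative phosphorylation genes had a median of 0.01 over 82 measured with 0 past 1.5-fold, ribosomal protein genes 0.06 over 78, MHC class I genes 0.04 over 15, p53 and its targets -0.07 over 15, and heat shock genes -0.05 over 13. Ribosomal protein genes still leaned to suffix 2, with 67 of 78 above 0, beside 35.4% of all genes. Summed, they took 28.3% of suffix 1 UMIs and 29.4% of suffix 2 UMIs. The mitochondrially encoded genes, on which cells were filtered, had a median of -0.02.

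**Figure D3:**
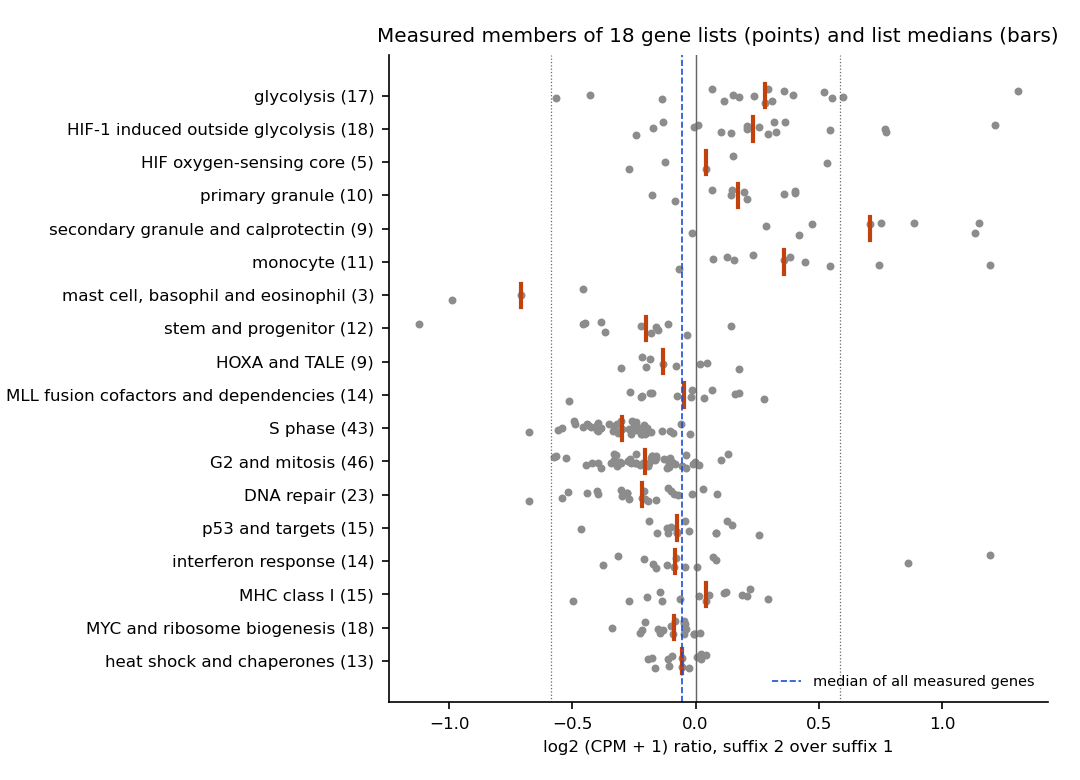
Log2 ratio of CPM + 1, suffix 2 over suffix 1 (x axis), for the measured members (grey points) of 18 gene lists (y axis, number measured in brackets). Orange bars are list medians, the dashed line is the median of all measured genes and the dotted lines mark 1.5-fold; vertical scatter within a list only separates points. Secondary granule genes at 0.71 and mast cell and basophil genes at -0.71 have the outermost medians, and the S phase points all lie left of 0.

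Shares of cells were then taken in gates, sets of cells defined by their UMIs per 10000 in marker genes; unless said otherwise a gate is the top 25% of both suffixes together. The Cpa3-high gate is any cell with a Cpa3 UMI, since fewer than 25% of cells had one. Gates overlap and are called by their genes, not by a cell type. Elane-high cells were 20.6% (18.3 to 23.04%) of suffix 1 and 29.2% (26.7 to 31.8%) of suffix 2, and Cebpe-high cells, marked by a granulocyte transcription factor, 22.9% and 27.0%. S phase-high cells were 29.1% (26.5 to 31.8%) and 21.2% (18.9 to 23.6%), and G2 and mitosis-high cells 27.6% and 22.6%. Cells in the lowest 25% for both sets of cycle genes summed were 22.7% and 27.2%. Cells high in Cd34 and Flt3, a progenitor antigen and a progenitor cytokine receptor, took similar shares, 26.1% (23.6 to 28.7%) and 24.1% (21.7 to 26.5%). At 2000 UMIs per cell the order of the suffixes was the same in each of these gates, with Elane-high at 20.6% and 29.98%.

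**Figure D4:**
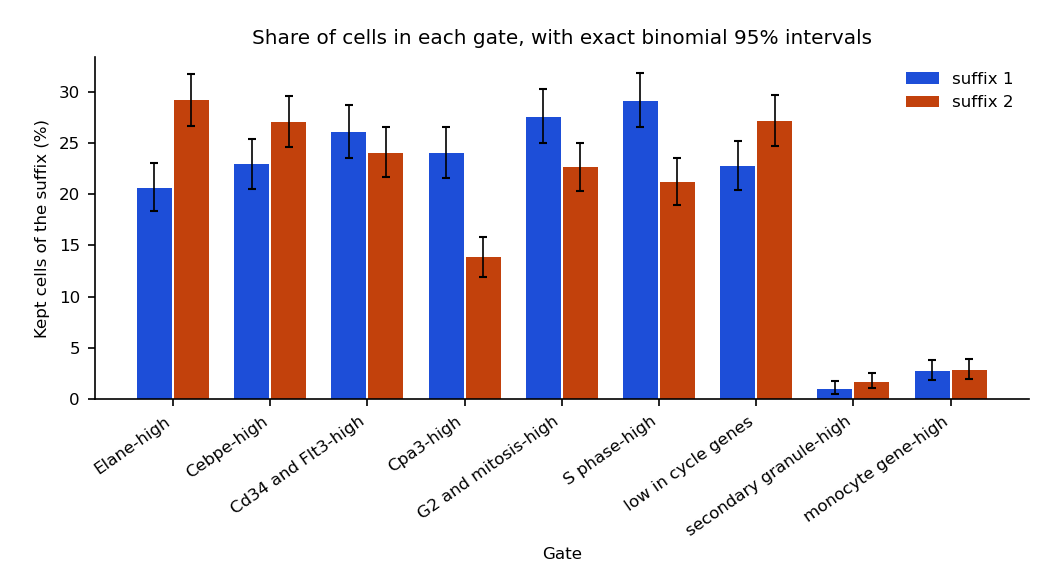
Percentage of kept cells (y axis) in each of 9 gates (x axis) in suffix 1 (blue) and suffix 2 (orange), with exact binomial 95% intervals that cover counting error only. Elane-high cells take more of suffix 2, and Cpa3-high and S phase-high cells more of suffix 1.

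Inside gates, the glycolytic difference was present in each. Over the 7 gates with at least 100 cells in each suffix the list's median log2 ratio lay between 0.25 and 0.42, with 13 to 15 of 17 genes above 0. The medians of all genes measured inside these gates lay between -0.06 and -0.04. Slc16a3 was past 1.5-fold in 7 of 7 gates (log2 ratios 0.96 to 1.62) and P4ha1 in 7 of 7 (0.65 to 2.01). Ratios of named genes over the gates were taken at any level, without the 20 CPM minimum used for the shares of all genes. P4ha1 was under that minimum in Elane-high and in Cd34 and Flt3-high cells, and both genes were under it in Cpa3-high cells. In the Cd34 and Flt3-high cells P4ha1 had 10 UMIs in suffix 1 and 44 in suffix 2, and in the Elane-high cells 25 and 63. In Cpa3-high cells the counts were small, 15 and 17 for Slc16a3 and 17 and 19 for P4ha1, and both intervals of the ratio include 1. Gapdh, Aldoa, Tpi1, Pkm, Ldha, Eno1, Pfkp and Mif were higher in suffix 2 in 7 of 7 gates, and Hk1 and Pgk1 lower in 7 of 7. Counting error inside a gate is wide: at 20 CPM in Elane-high cells, 35 and 55 UMIs give an interval of 0.647 to 1.58, so a single ratio of 1.5 at that level lies within counting error. Of all genes measured inside a gate (mean of at least 20 CPM), the shares past 1.5-fold in suffix 2 and in suffix 1 were 0.627% and 1.34% in Elane-high, 0.855% and 1.75% in Cebpe-high, and 1.29% and 2.25% in Cd34 and Flt3-high cells. They were 3.02% and 4.79% in Cpa3-high, 0.603% and 1.54% in G2 and mitosis-high, 0.654% and 1.14% in S phase-high, and 2.03% and 3.52% in cells low in cycle genes. Of these 7 gates, the shares were highest in Cpa3-high cells and cells low in cycle genes, which hold the fewest UMIs.

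**Figure D5:**
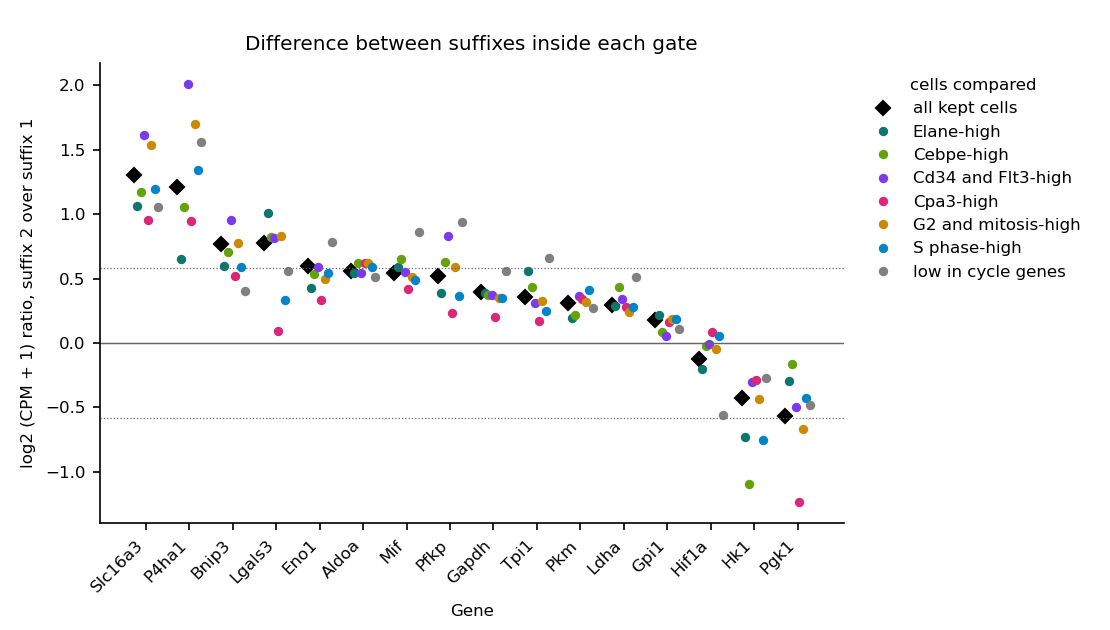
Log2 ratio of CPM + 1, suffix 2 over suffix 1 (y axis), for 16 genes (x axis) in all kept cells (black diamonds) and inside each of 7 gates (coloured points); dotted lines mark 1.5-fold. Slc16a3 and P4ha1 lie above the upper line in each gate, and Hk1 and Pgk1 below 0.

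Other differences were uneven over the gates. S100a9 was past 1.5-fold in 7 of 7 gates, from 0.90 up to 4.85 in S phase-high cells, where it had 49 and 1143 UMIs. Of the S phase-high cells, 3 in suffix 1 and 6 in suffix 2 were secondary granule-high, and without them S100a9 had 17 and 31 UMIs there (log2 ratio 1.14). Without such cells it stayed past 1.5-fold in 7 of 7 gates, on counts from 4 to 79 UMIs (log2 ratios 0.83 to 2.93). Its mean was then under the 20 CPM minimum in all gates but Elane-high and Cebpe-high. Leaving out secondary granule-high cells was chosen after seeing the data, and S100a9 itself helps to define the cells left out. Angpt1 was lower in suffix 2 in 7 of 7, and past 1.5-fold in 6. Outside the gate that its gene defines, Cpa3 was lower in 6 of 6 gates; it came closest to level in the Cd34 and Flt3-high cells, at 226 and 193 CPM, and was farthest apart in G2 and mitosis-high cells, at 94.99 and 36.4 CPM. The S phase list had a median of -0.32 in Elane-high cells and -0.44 in Cpa3-high cells. In the cells low in cycle genes it was -0.06, over the 35 members that did not define the gate. The medians of all genes measured inside these gates were -0.05, -0.04 and -0.06, in the same order. The gate of monocyte genes held 32 and 35 cells, where 20 CPM is 3 and 4 UMIs, and is too thin for gene ratios (15% and 21.8% of genes past 1.5-fold).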

How the data were processed

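Raw UMI counts, not normalized, were deposited as 1 table of 27998 genes by 5664 barcodes. Reads were processed with Cell Ranger 1.3 and mm10, per the submitters' processing notes, which name Seurat 2.3.4 for later steps where the design text names 1.4; no annotation release is named in the sources used here. Counts were summed per suffix over cells with at most 10% mitochondrial UMIs and divided by the total. A gene was measured at a mean of 10 CPM (20 inside gates), and called at 1.5-fold of CPM + 1. Ratios of named genes followed over the gates used no minimum inside a gate. Intervals are exact: Poisson for CPM, conditional binomial for ratios, binomial for shares.

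Named genes are the 15 with the largest ratio each way, and per list the 2 most abundant and 2 others with the largest ratio, Hif1a, and the 3 leading genes each way inside a gate, of which some are left out. Further list members were named for their role after their values were seen. The members and lists were chosen with earlier results of these data known. The minimum of 100 cells for summaries over gates was set after seeing the data. No doublet caller was run; leaving out the 5% of cells with the most UMIs was tried. Some genes of the 45 lists were not analysed here, and 1 gene past 1.5-fold is not reported here. Gene loci are GENCODE's for GRCm38, the same build as mm10. The calculation was tested on simulated data. Python 3.11.15, scipy 1.17.1 and edgeR 4.0.16 (TMM factors only) were used.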

Additional observations from a re-analysis of the deposited data

How the results depend on the processing

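No paired analysis was possible because each suffix is 1 library with no replicate number. Against 26 genes higher in suffix 2 and 44 higher in suffix 1, median-of-ratios scaling gave 40 and 32, and TMM 40 and 29. A minimum mean of 50 CPM gave 10 and 7, and no minimum 247 and 428. A pseudocount of 5 CPM left 24 genes higher in suffix 1. Thinning to 2000 UMIs gave 97 and 236, of which 21 and 33 were among the 26 and 44. The mean over cells gave 67 genes higher in suffix 1. Equal gate shares gave 14 genes higher in suffix 2, of which 13 were among the 26. The cause of these shifts was not tested, beyond the genes a minimum adds or removes and the counts that thinning discards. Without secondary granule-high and monocyte gene-high cells, an alternative chosen after seeing the data, the counts were 19 and 51, and without Cpa3-high cells, also chosen afterwards, 26 and 43. Of the 30 leading genes, 20 of the 25 still measured passed 1.5-fold with equal gate shares.

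Counts inside gates turned on the threshold. With a pseudocount of 5 CPM they were 58 in Elane-high, 71 in Cebpe-high, 101 in Cd34 and Flt3-high, 61 in G2 and mitosis-high, 53 in S phase-high and 173 in cells low in cycle genes. With the top or bottom 10% of cells they were 435, 579, 702, 437, 390 and 581 in the same order, and 899 in Cpa3-high. At a mean of 100 CPM, chosen after seeing the data, they were 6, 9, 8, 7, 5 and 20 in that order, 17 in Cpa3-high and 229 in monocyte gene-high.

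Of 42 list medians, 19 took both signs over the alternatives: 16 of the 25 nearer to 0 than 0.1, the HIF core, MLL cofactor and interferon lists among them, and 3 of the other 17. In those 3, the chemokine median was -0.14 at 50 CPM and -0.034 with no minimum, the cholesterol synthesis median 0.0037 at 50 CPM, and the NF-kB median 0.22 with no minimum and 0.031 as a mean over cells. S100a8, which helps to define the secondary granule gate, was at -0.10 with equal gate shares.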

Other observations

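Genes under the 10 CPM minimum but with at least 50 UMIs in the suffixes together and a ratio of at least 3-fold, a rule chosen after the values were seen, were 7. Ankrd37 and Aldoc are given above. Iqcg, an IQ motif gene in none of the lists, had 7 UMIs in suffix 1 and 83 in suffix 2, a ratio of 10.9 (5.05 to 27.9). Suffix 3 held 3 UMIs of it and suffix 4 held 50. Its pattern over the 4 suffixes, low in 1 and 3 and high in 2 and 4, is that of Ankrd37. Gfi1b, a transcription factor of erythroid and megakaryocyte progenitors, had 68 and 20 UMIs, at 8.90 and 2.40 CPM, and 1.51 and 1.52 CPM in suffixes 3 and 4. Timm8a1, a mitochondrial import chaperone, had 48, 17, 40 and 16 UMIs in suffixes 1 to 4. Cd72, a B cell coreceptor, had 37 and 13 UMIs. E330013P04Rik had 49, 13, 1 and 0 UMIs in suffixes 1 to 4.

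The eosinophil granule gene Prg2 had 0 UMIs in suffix 1, which allows up to 0.483 CPM in the exact 95% interval, and 29 in suffix 2, or 3.48 CPM. No cell of either suffix reached the gate for Prg2 and Prg3, which allows a share of up to 0.314% and 0.294% at 95% confidence. Prg2 was at 57.8 CPM in suffix 3 and 4.09 CPM in suffix 4.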
